A study of Bos indicus with 12 samples.

Results

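The stretch examined here is the beginning of each cattle autosome, chromosomes 1 to 29, from the first base of the assembly to position 2000000. Members were chosen by position alone, with no methylation value involved: every CpG cytosine of the deposited table on chromosomes 1 to 29 with a start at or below 2000000 was kept. They numbered 19095 of 635469 cytosines in the table, or 3.03% of the autosomal ones, and the 610605 autosomal cytosines beyond 2 Mb formed the rest. Cattle autosomes are acrocentric, and the assembly is written from the centromere side, so these are the covered cytosines nearest to the centromeres. No satellite or centromere annotation was at hand, so that the stretches are centromere-side rests on this convention and was not checked in the data. The first covered cytosine lay between position 7709 on chromosome 28 and position 467230 on chromosome 6.

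Reduced representation bisulfite sequencing (RRBS) was performed on *Longissimus thoracis* skeletal muscle of 12 Nelore (*Bos indicus*) steers, which shared feedlot rations and handling. The 6 Tough animals had a higher shear force, the force needed to cut the cooked beef, and the 6 Tender animals a lower one. The groups came from opposite ends of a larger herd ranked by breeding value for shear force, so they are not random samples of the breed. Whole muscle holds fibres together with fat, vessel and blood cells, and the markers of these were not checked, since promoters could not be placed. Each animal gave 1 library. Over the members the scaled reads totalled 549103 to 698798 per animal, with a median of 24 to 32 reads per cytosine against 25 to 33 in the rest.

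In mammals, methyl groups are added mostly to cytosines followed by guanine. Most of the genome is methylated, while clusters of CpGs at gene starts, the CpG islands, are usually kept free of it. Chromosome ends and the flanks of centromeres carry repeats that are usually densely methylated in somatic tissue. RRBS cuts DNA with MspI and so reads mainly CpG-rich fragments, which makes its average level lower than that of the genome. The level given throughout is the percent methylation, 100 times methylated reads over all reads of a cytosine, averaged over cytosines within an animal, and differences between levels are percentage points. Fragments repeated in the genome are read only where the alignment placed them, so a count of covered cytosines is not a count of CpGs in the sequence.

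Most members came from a pair of chromosomes. Chromosome 25 held 6108 and chromosome 14 held 4767, together 57.0% of all members, and the other 27 chromosomes shared 8220. The first 2 Mb carried 329 covered cytosines per Mb over all autosomes against 251 in the rest, but 152 against 248 without chromosomes 14 and 25. Only chromosomes 1, 8, 14, 24, 25 and 27 were denser in their first 2 Mb than beyond, and 23 were sparser. The median over chromosomes was 117 per Mb against 221.

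The densest starts also led their own chromosomes. Chromosome 14 had 2384 covered cytosines per Mb in its first 2 Mb, 14.5 times the 164 of its rest. The ratio was 4.72 on chromosome 25 and 3.26 on chromosome 24. On all 3 the first segment of 2 Mb held more covered cytosines than any other segment of that length on the chromosome. In the RefSeq gene order of another cattle assembly, used for names only, chromosome 14 begins with the zinc finger genes ZNF250, ZNF16 and ZNF34 and the ribosomal protein gene RPL8, and chromosome 25 with IL9R, POLR3K, SNRNP25, RHBDF1, MPG and NPRL3 before the globin gene HBM. At the other extreme, chromosome 6 had 13 members and chromosome 19 had 35, although the rest of chromosome 19 was the densest of all at 708 per Mb. The last 2 Mb of covered positions, the opposite ends of the same chromosomes, held 1339 per Mb.

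**Figure D1:**
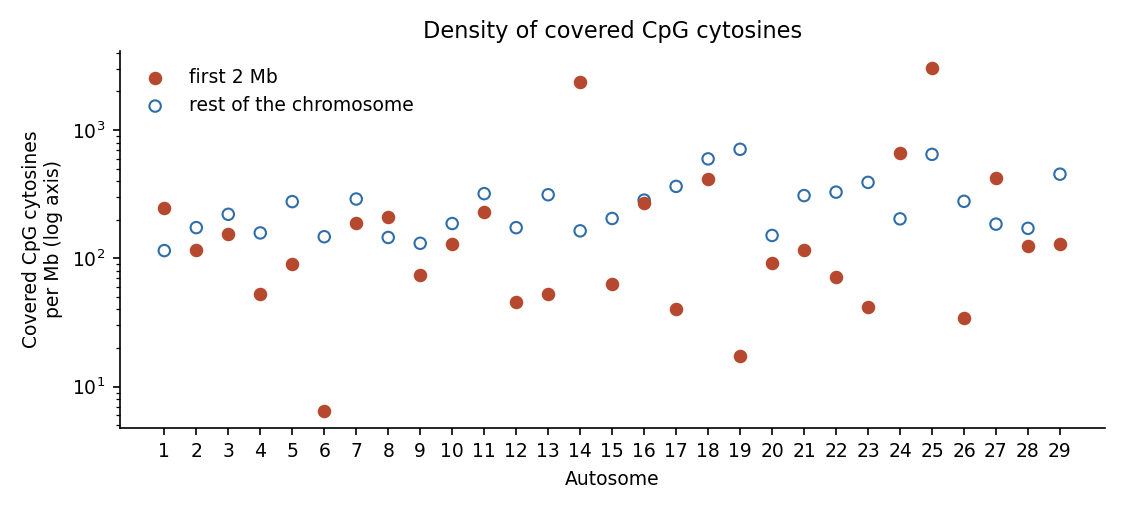
Covered CpG cytosines per Mb (log axis) on each autosome, in the first 2 Mb (filled) and in the rest of the chromosome (open). Chromosomes 14 and 25 stand at 2384 and 3054 per Mb, while chromosome 6 has 6.50 and chromosome 19 has 17.5.

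The first 2 Mb were more methylated than the rest. In the Tough animals the member level was 30.8% at the lowest, 31.9% at the median and 32.5% at the highest, and in the Tender animals 31.9%, 32.3% and 32.5%. The mean over 12 animals was 32.0% ± 0.48 (SD, n = 12) in the members and 29.4% ± 0.42 in the rest. The difference was 2.62 points ± 0.11 (SD), between 2.38 and 2.79, and was above 0 in 12 of 12 animals (exact two-sided sign-flip permutation test over animals, p = 0.000488, the smallest that 12 pairs can give). This test asks whether the animals share a direction. It says nothing of how chromosomes vary, which is given below. The 2 Mb limit itself marked no step: the 973 cytosines between 1.9 and 2 Mb averaged 29.5% and the 801 between 2 and 2.1 Mb averaged 32.2%.

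That small surplus joined opposite differences. Without chromosomes 14 and 25 the members stood at 36.2% ± 0.44 against 29.2% ± 0.42, a difference of 6.92 points ± 0.19 (n = 12 animals, higher in 12 of 12, exact sign-flip p = 0.000488). On chromosomes 14 and 25 the first 2 Mb were lower than the rest in every animal, 28.9% ± 0.53 against 32.2% ± 0.41, a difference of -3.23 points ± 0.18 (exact sign-flip p = 0.000488). With each chromosome given the same weight the levels were 35.5% and 30.1%, 5.46 points apart. The members were lower than the last 2 Mb, which stood at 41.5% ± 0.50, by 9.43 points in the mean and in 12 of 12 animals.

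The share of cytosines near 0 differed between the chromosomes. Outside chromosomes 14 and 25, 45.7% of members averaged under 5% methylation against 52.8% of the rest, 21.7% against 17.6% lay between 20 and 80%, 17.4% against 13.1% between 80 and 95%, and 8.09% against 7.06% lay over 95%. On chromosomes 14 and 25, 52.2% of members were under 5% against 50.2% of their rest, 18.9% against 18.5% lay between 20 and 80%, and 6.69% against 8.07% lay over 95%.

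Chromosomes went both ways. The first 2 Mb were more methylated than the rest of the same chromosome on 17 autosomes and less on 12, and all 29 differences passed the exact sign-flip test with Benjamini-Hochberg adjustment over 29 chromosomes (lowest adjusted p = 0.000506). The same cytosines are read in every animal, so the test asks only whether the animals share a direction. It does not ask whether a start is unusual for its chromosome. With at least 20 reads asked of each animal, 22 were higher and 7 lower. Levels in the first 2 Mb ran from 16.3% to 64.2%, and those of the rest from 23.2% to 35.3%. These ranges are not of like stretches, since a start averaged 13 to 6108 cytosines and a rest 7522 to 43529. Levels of other segments of 2 Mb were not compared, so a wider range was not shown to be particular to the starts. The smallest difference was that of chromosome 11, 0.25 points, which was higher in 9 of 12 animals (adjusted p = 0.0186).

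Chromosome 21 had the highest start. Its 232 members averaged 64.2% ± 0.87 (SD, n = 12 animals, range 62.9 to 65.4%) against 31.2% in the rest of the chromosome, and only 4.31% of them were under 5% methylation where 49.7% of its rest were. In the RefSeq order of the other assembly the named genes at this end begin with MKRN3, MAGEL2, NDN, SNURF and SNRPN, which in mammals are known as imprinted genes expressed from the paternal copy. Which of the covered cytosines lie in them was not determined, since no annotation of the assembly of the files was used.

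Chromosomes 20, 4, 13 and 23 followed. The level was 58.9% ± 0.74 on chromosome 20 (184 members), 56.8% ± 0.91 on chromosome 4 (105 members), 54.7% ± 1.57 on chromosome 13 (106 members) and 53.5% ± 2.02 on chromosome 23 (83 members). Their rests stood at 35.1%, 30.6%, 27.7% and 31.1%. The animals of chromosomes 21 and 20 did not overlap, those of chromosomes 20 and 4 overlapped only between 57.9 and 58.5%, and chromosomes 13 and 23 overlapped widely at 51.6 to 56.5% and 49.2 to 56.3%. All 5 of these starts were sparse, with 0.106 to 0.610 times the density of the rest of their chromosome.

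The lowest starts were those of chromosomes 7, 3, 15, 28 and 17. Chromosome 7 averaged 16.3% ± 0.93 over 379 members and chromosome 3 averaged 17.02% ± 0.83 over 309, against 23.2% and 27.99% in their rests. Chromosome 15 stood at 18.2% ± 0.92, chromosome 28 at 20.1% ± 0.92 and chromosome 17 at 20.6% ± 0.86, with rests of 28.6%, 26.9% and 32.7%. Between 63.7% and 73.8% of the members on these 5 chromosomes were under 5% methylation. With the limit moved to 1 Mb, chromosomes 15 and 28 were no longer low but stood above their rests, by 24.2 and 11.4 points. With at least 20 reads asked of each animal, chromosomes 15 and 17 were higher than their rests by 1.95 and 3.81 points.

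**Figure D2:**
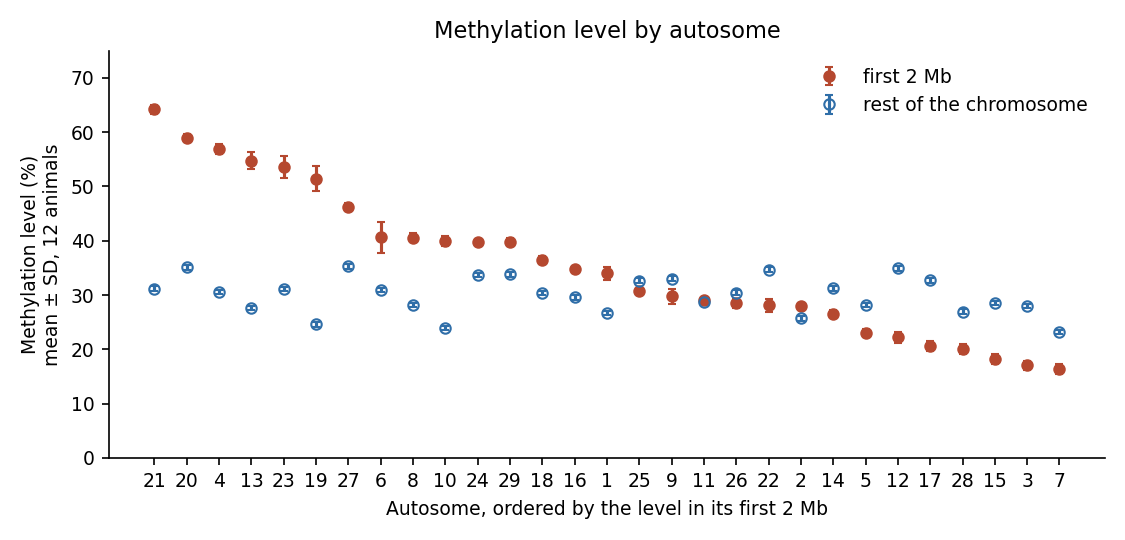
Methylation level (%) in the first 2 Mb (filled) and the rest (open) of each autosome, ordered by the first; points are means and bars SD over 12 animals. The starts spread from 16.3% to 64.2%, the rests from 23.2% to 35.3%, and the bars are short beside the range of the starts. Each start averages fewer cytosines than its rest.

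The surplus was steepest at the tip. Over the 27 chromosomes other than 14 and 25, the first 250 kb averaged 60.3% ± 0.98, from 631 cytosines on 26 chromosomes. The Tough animals stood at 58.3%, 60.2% and 61.7% and the Tender animals at 59.4%, 60.5% and 61.7% (lowest, median and highest). The next 250 kb averaged 41.8% ± 0.63, the bins from 0.5 to 2 Mb lay between 28.9% and 35.2%, and the 12 bins from 2 to 5 Mb between 25.6% and 42.9%. The first 250 kb exceeded the rest beyond 2 Mb by 31.1 points ± 0.83 and the remainder of the first 2 Mb by 26.2 points ± 0.80, each in 12 of 12 animals (exact sign-flip p = 0.000488). From 0.25 to 2 Mb the surplus over the rest was 4.91 points ± 0.18.

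The tips were also unlike the rest in coverage. Their median was 36 reads, against 25 to 29 in the other bins of the first 5 Mb, and 17.1% of their cytosines were in the top 1% of mean coverage of the whole table. The part of coverage in the level was not tested beyond the values that follow. Without the top 1% the tip stood at 57.6% ± 1.05 from 523 cytosines, 28.5 points above the rest, and with at least 20 reads in each animal at 68.0% ± 0.78 from 281 cytosines. Only 16.3% of the tip cytosines were under 5% methylation and 6.97% over 95%, while 41.4% lay between 20 and 80%, against 20.1% from 0.25 to 2 Mb.

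Most chromosomes shared this tip. Of 23 chromosomes with 10 or more covered cytosines in the first 250 kb, the tip was above the remainder of the first 2 Mb on 20 and above the rest of the chromosome on 19. It reached 80.7% on chromosome 12 (10 cytosines), 79.7% on chromosome 16 (31) and 76.7% on chromosome 10 (38), against 14.97%, 32.0% and 33.7% from 0.25 to 2 Mb. The tip was lower than the remainder on chromosome 8 at 1.27% (11 cytosines), on chromosome 11 at 14.8% (55) and on chromosome 27 at 31.3% (34). Chromosome 29 had 52 tip cytosines at 70.1% with a median of 95 reads, and chromosome 20 had 16 at 68.2% with a median of 170.5 reads. Chromosomes 2, 23 and 29 were above their rests over the whole first 2 Mb but not outside the tip. From 0.25 to 2 Mb they stood at 20.2%, 27.2% and 32.1%, against rests of 25.8%, 31.1% and 33.8%.

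Chromosome 14 had its lower levels near the start. Its level was 34.0% in the first 250 kb, on only 19 cytosines, 17.4% between 0.5 and 0.75 Mb where 932 cytosines were covered, 47.8% in the last 250 kb before 2 Mb and 65.1% between 2 and 2.25 Mb. Chromosome 25 had no such order, with bins from 23.1% to 42.4% in its first 2 Mb.

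**Figure D3:**
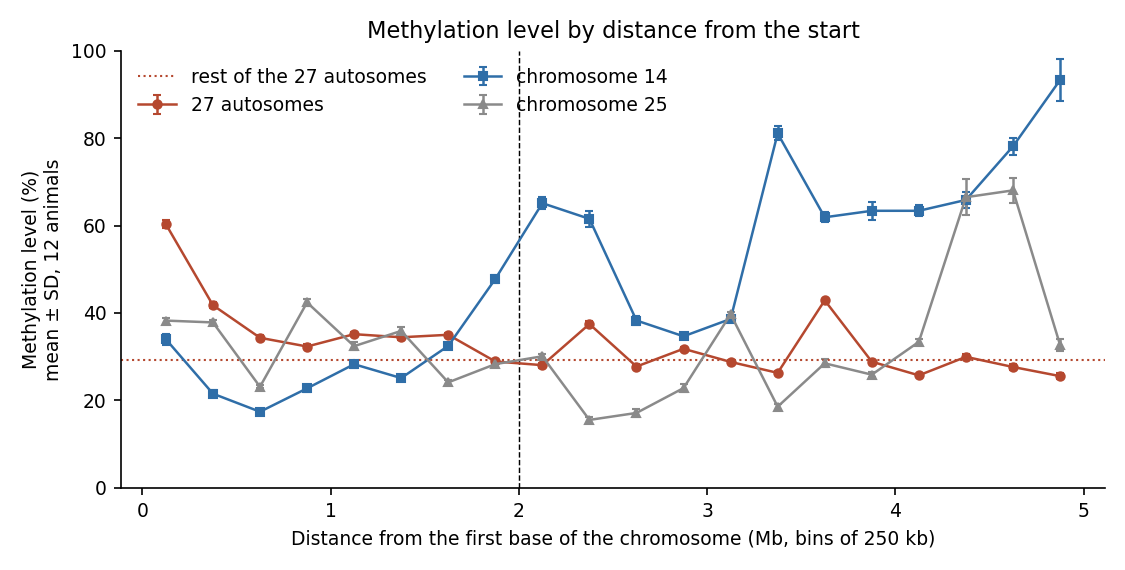
Methylation level (%) in bins of 250 kb by distance from the first base of the chromosome, for 27 autosomes together (circles), chromosome 14 (squares) and chromosome 25 (triangles); points are means and bars SD over 12 animals, the dotted line is the rest of the 27 autosomes beyond 2 Mb at 29.2% and the dashed line marks 2 Mb. The 27 autosomes start at 60.3%, reach 41.8% in the next bin and 28.9% just before 2 Mb.

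The level was also compared between cytosines packed alike. Packing was taken as the number of covered cytosines within 500 bp, and densely packed cytosines were mostly unmethylated everywhere: with 40 or more, members stood at 2.18% and the rest at 2.73%. Isolated members with 1 to 4 stood at 66.8%, and the rest at 64.8%. Outside chromosomes 14 and 25, 28.6% of members were in this isolated class against 22.0% of the rest. Within classes the members there were higher by 3.77 points at 1 to 4 and 4.21 points at 5 to 9 covered cytosines, and lower by 1.17 points at 10 to 19 and 0.49 points at 20 to 39. Each of these 4 differences had the same sign in 12 of 12 animals (exact sign-flip p = 0.000488 for each). At 40 or more the members were higher by 0.45 points, in 9 of 12 animals (exact sign-flip p = 0.00781).

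On chromosomes 14 and 25 the direction differed between classes. Their first 2 Mb were lower than their rest as a whole, yet higher by 8.58 points at 5 to 9, 8.41 points at 10 to 19 and 2.91 points at 20 to 39 covered cytosines, in 12 of 12 animals. They were lower by 2.25 points at 1 to 4 (0 of 12 animals higher), and the 0.073 points by which they were lower at 40 or more missed the test (exact sign-flip p = 0.0732). They held more tightly packed cytosines, with 24.5% of members in the class of 40 or more against 15.9% of the rest. In the tips of the other 27 chromosomes the surplus was present in all 4 classes found there, at 6.04, 15.8, 8.87 and 26.8 points from the sparsest to the densest. These rest on 302, 196, 62 and 71 cytosines, so the values of the denser classes come from few places. Over all autosomes, members exceeded the rest by 3.98 points when the rest was weighted to the packing of the members. That value includes chromosomes 14 and 25, and it was not computed for the other 27 chromosomes alone. On those 27 the class differences of the first 2 Mb ran from -1.17 to 4.21 points, against 6.92 points without regard to packing.

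Neighbouring members formed 2583 clusters, taken as runs of covered cytosines no more than 500 bp apart, and 486 of these held 10 or more cytosines and 65.5% of all members. Their levels were mostly at the extremes: 302 of the 486 averaged under 10%, 71 over 80% and 113 in between. The largest, chr14:868292-871449, had 131 cytosines at 1.47% ± 0.55. The start of chromosome 25 alternated within short distances. The 52 cytosines of chr25:8894-9761 averaged 76.4% ± 2.98 at a median of 86 reads, the 78 of chr25:139152-140112 averaged 1.09% ± 0.55, and the 10 of chr25:147421-147512 averaged 95.5% ± 1.83.

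No difference in the spread between animals was detected over all members. Spread was the mean absolute deviation of an animal from the other 5 of its group, compared within 5 classes of mean methylation and weighted to the members' share of each. It was 5.62 points ± 0.37 in the members and 5.65 points ± 0.38 in the rest, a difference of -0.027 points ± 0.077, higher in 4 of 12 animals (exact sign-flip p = 0.242). None of the 5 classes passed with adjustment over the 5 (lowest adjusted p = 0.176). This depended on the limit and the weighting. With a limit of 1 Mb the difference was -0.185 (p = 0.000488, exact sign-flip test) and with each chromosome weighted equally -0.221 (p = 0.000977, exact), while without Tough animal 2 it was -0.054 (p = 0.0146, exact).

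By chromosome the spread was higher in the first 2 Mb on chromosomes 8, 18 and 27 and lower on 11 with an adjusted p under 0.05 (exact sign-flip test, adjustment over 29 chromosomes). Chromosome 8 had 7.00 against 6.27 points, higher in 12 of 12 animals (adjusted p = 0.00566). Chromosome 18 had 6.87 against 6.45 (11 of 12, adjusted p = 0.00566) and chromosome 27 had 7.57 against 7.15 (10 of 12, adjusted p = 0.0384). Among those lower were chromosome 4, with 6.63 against 7.64 points, and chromosome 26, with 4.92 against 6.09. Spread includes the sampling of reads, and the classes matched the level but not the coverage. The median coverage was 25, 26 and 25 reads in the starts of chromosomes 8, 18 and 27, against 28 in each rest. It was 32 against 27 on chromosome 4 and 28 against 28 on chromosome 26. The part of coverage in these differences was not tested.

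The 3 clusters of 10 or more cytosines with the largest SD between animals, chosen after the values were seen, lay on chromosomes 18 and 27. In chr18:1178859-1179060, 10 cytosines with a median of 21 reads averaged 0.95%, 36.0% and 83.9% (lowest, median and highest) in the Tough animals and 0%, 4.32% and 40.99% in the Tender animals. The animals ran from nearly unmethylated to mostly methylated, with others in between, and the groups overlapped. The difference of -26.1 points had an exact two-sided permutation p = 0.0671, and 0.916 after adjustment over the 486 clusters. On chromosome 27, chr27:1182719-1182764 ran from 1.56% to 71.6% in the Tough and from 1.85% to 49.3% in the Tender animals, and chr27:1056061-1056218 from 24.3% to 52.1% and from 18.1% to 70.7%. The median SD over the 486 clusters was 1.24 points. Of the 486, 25 (5.14%) had an unadjusted p under 0.05 for Tender against Tough in the exact permutation test, and 0 after adjustment. That share is near the cut of 0.05 itself. The share among clusters beyond 2 Mb is not given here, so the 25 are no result about the starts.

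The study's own question is whether methylation differs between Tender and Tough muscle. In the first 2 Mb the Tough animals averaged 31.8% ± 0.60 (SD, n = 6) and the Tender animals 32.3% ± 0.20 (n = 6). The shift, Tender minus Tough, was 0.42 points (exact two-sided permutation test, p = 0.134), and the groups overlapped. In the rest it was 0.41 points (exact permutation p = 0.104). The 2 shifts differed by 0.013 points (exact permutation p = 0.861). With each chromosome weighted equally the difference of shifts was -0.30 points with an unadjusted exact permutation p = 0.0455, where a sparse start counts as much as a dense one. Without Tough animal 3 the shift in the members was 0.54 points with an unadjusted exact permutation p = 0.0411. Without Tough animal 2 it was 0.22 points (p = 0.247, exact), and without any other animal it lay between these values.

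Bisulfite conversion, measured by the submitters with spiked-in DNA, put 5 animals at a higher and 7 at a lower value. The member shift was 0.66 points among the 5 (3 Tough, 2 Tender) and 0.085 among the 7 (3 Tough, 4 Tender). The rest gave 0.63 and 0.10. Members averaged 31.7% in the animals with higher conversion and 32.3% in the others. That difference was not tested, and the animals with higher conversion include the lowest of all, Tough animal 2 at 30.8%. With labels exchanged only within the 2 conversion groups, the member shift was 0.37 points (exact permutation p = 0.129) and its difference from that of the rest 0.0060 points (exact permutation p = 0.931).

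By chromosome the shift was above 0 on 17 and below 0 on 12, and none passed the exact permutation test with adjustment over 29 (lowest adjusted p = 0.672). One passed unadjusted, chromosome 11, where the Tough animals averaged 28.7% and the Tender animals 29.3% (exact permutation p = 0.0260). In the rest of the chromosomes the shift was above 0 on all 29, between 0.24 and 0.57 points, with a median of 0.41, while the median of the first 2 Mb was 0.15. The levels of the starts, on as few as 13 cytosines, had SDs over animals of 0.48 to 2.88 points, against 0.36 to 0.50 in the rests. The cause of the lower median shift in the starts was not tested. A difference between a chromosome's own shifts passed unadjusted only on chromosome 26, by -1.26 points (exact permutation p = 0.00866, adjusted p = 0.251).

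The most positive shifts were those of chromosomes 1, 23 and 9. On chromosome 1 the Tough animals stood at 32.1%, 33.3% and 35.0% and the Tender animals at 33.6%, 34.3% and 36.7% (lowest, median and highest), a shift of 1.14 points (exact permutation p = 0.102, adjusted p = 0.672). Chromosome 23 had a shift of 0.86 points, with Tough values from 49.2% to 55.4% and Tender values from 51.7% to 56.3%. Chromosome 9 also had one of 0.86 points, with 27.5 to 30.8% in Tough and 28.95 to 32.2% in Tender. In all 3 the groups overlapped. Single animals weighed on these values: the shift of chromosome 23 was 0.087 points without Tough animal 2 and 1.32 without Tough animal 3, and those of chromosomes 1 and 9 were 0.71 and 0.47 without Tender animal 10. The most negative shifts were those of chromosomes 6, 4 and 26, and that of chromosome 6 was the largest in size of all 29. Chromosome 6, with 13 cytosines, had a shift of -1.97 points, with 37.3 to 44.9% in Tough and 35.9 to 41.7% in Tender. Chromosome 4 had a shift of -0.78 points, with 55.9 to 58.5% in Tough and 55.4 to 57.8% in Tender, and chromosome 26 one of -0.69 points, with 27.8 to 29.5% and 26.9 to 29.2%. Leaving out 1 animal gave -2.83 to -1.22 points on chromosome 6, -1.05 to -0.52 on chromosome 4 and -0.90 to -0.44 on chromosome 26. Again the groups overlapped and no adjusted p was under 0.05 (0.672 to 0.686).

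**Figure D4:**
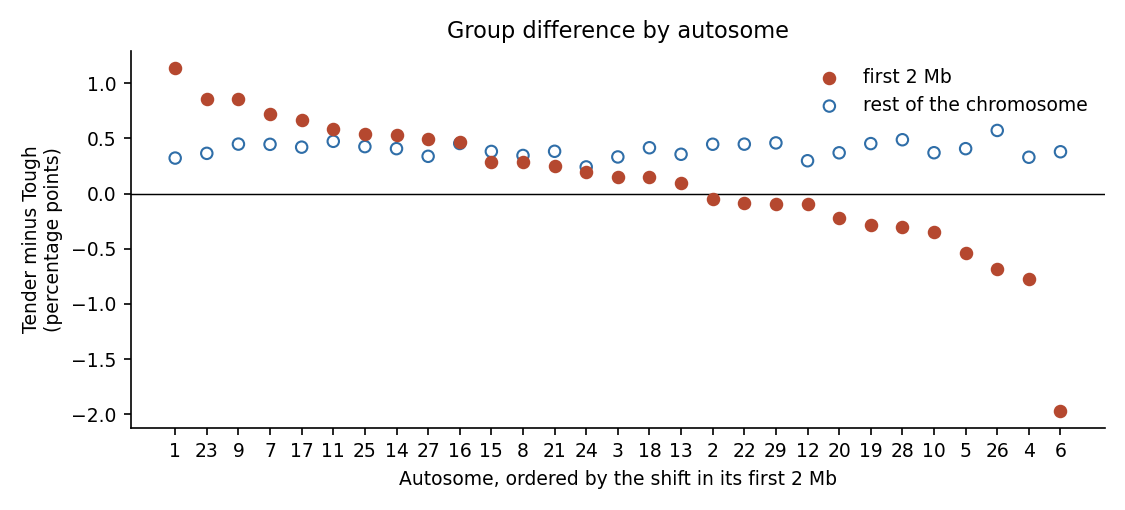
Tender minus Tough difference in methylation level (percentage points) in the first 2 Mb (filled) and the rest (open) of each autosome, ordered by the first. The rests lie between 0.24 and 0.57, the starts between -1.97 on chromosome 6 and 1.14 on chromosome 1. Each start averages fewer cytosines than its rest.

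Single cytosines were tested with a logistic model of methylated and unmethylated reads, corrected for overdispersion, over the whole table. Differentially methylated cytosines (DMCs) had a chi-square p adjusted by Benjamini-Hochberg under 0.05 and a pooled difference beyond 25 points. Among the members 6 were called, or 0.0314%, where 121 of all 635469 cytosines, 0.0190%, were called. Of the 6, 4 were higher in Tender, as were 84 of all 121. Leaving out 1 animal gave 2 to 9 called members. There were 2 without Tender animal 10 (0.0105%, against 0.0294% of all cytosines in that fit), 3 without Tender animal 7 or 8 (0.0157%, against 0.0250% and 0.0209%) and 9 without Tough animal 3 or Tender animal 11 (0.0471%, against 0.0244% and 0.0230%). The members' share was thus above that of the table in some of these fits and below it in others. An F-test on the same model and limma on log ratios called 0 members and 0 cytosines in the whole table. At an unadjusted p under 0.05 stood 8.54% of members and 8.28% of the rest.

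Non-overlap between the 6 Tough and the 6 Tender values was seen at 21 members, 0.110%, against 0.0965% of all cytosines. The Tender values were the higher ones at 13 of the 21. The direction among all 613 such cytosines is not given here, so the 13 are no trait of the members. Differentially methylated regions, windows of 100 bp tested the same way, numbered 0 among 5385 member windows against 42 of 193249 windows in all (0.0217%). The F-test and limma also called 0 member windows, and 488 member windows (9.06%) had an unadjusted p under 0.05 in the logistic model, against 8.76% of all windows. The lowest adjusted p of a member window was 0.000571 in the logistic model, and with a difference beyond 10 points asked in place of 25, 8 member windows (0.149%) passed against 0.157% of all windows. Beyond 25 points, 2 member windows were called without Tough animal 6 or Tender animal 10 (0.0371%, against 0.0285% and 0.0393% of all windows). Without any other animal the count was 0 or 1, at most 0.0186% of member windows. Of all windows, 0.0212% to 0.0419% were called in those fits.

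The called cytosines are given with positions in ARS-UCD1.2/bosTau9 and with the closest gene, location and island class of the study's annotation. Reads were 50 bp long, so neighbours within 50 bp can lie on the same reads and are not independent of the called cytosine. Differences given for called cytosines and their neighbours are between reads pooled over the animals of each group. On chromosome 5, the plus-strand cytosine at chr5:1537982 lay between genes, closest to TPH2, which encodes the neuronal enzyme of serotonin synthesis. It was methylated at 56.3%, 74.8% and 100% in the Tough animals (lowest, median and highest) and at 8.82%, 31.7% and 54.2% in the Tender animals. It was the only one of the 6 with no overlap between the groups, and also had the highest overdispersion, 2.77. The pooled difference was -41.2 points (logistic model, adjusted p = 0.0356). The adjusted p was 0.806 in the F-test and 0.906 in limma. Any cytosine without overlap gets an exact permutation p of 0.00216, the smallest that 6 against 6 animals allow. Such cytosines numbered 613 among all 635469. This cytosine was chosen by its group difference in the same values, so that p adds no separate support. The 4 neighbours within 50 bp on its strand had pooled differences of -33.3 to -4.20 points. At the neighbour with -4.20, chr5:1537965, the mean over animals was the other way, 17.8% in Tough and 20.2% in Tender. With conversion as a covariate the adjusted p of the logistic model was 0.0537. Without Tough animal 2, 4, 5 or 6 or Tender animal 7, 8, 10 or 11 it was 0.0507 to 0.0994.

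On chromosome 14, the minus-strand cytosine at chr14:774091 lay in a CpG island between genes, closest to SMPD5 and OPLAH, the second of which encodes the enzyme that opens 5-oxoproline in the glutathione cycle. The Tough animals had 21.7%, 38.4% and 58.3% and the Tender animals 58.3%, 70.4% and 81.8%, meeting at 58.3%, the highest Tough and the lowest Tender value. The difference was 35.2 points (logistic model, adjusted p = 0.00123), and it kept its call without any 1 of the 12 animals. Its 2 neighbours within 50 bp differed by 13.8 and 20.98 points.

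Further along chromosome 14, the plus-strand cytosine at chr14:1674753 was in an exon of LYNX1, a GPI-anchored modulator of nicotinic acetylcholine receptors. Its values were 18.2%, 21.8% and 37.2% in Tough and 34.8%, 52.6% and 76.0% in Tender, with a difference of 26.4 points (logistic model, adjusted p = 0.0476). The groups overlapped, 2 neighbours within 50 bp differed by 1.13 and 13.6 points, and without Tough animal 1, 2, 3, 4 or 5 or Tender animal 7, 8, 10 or 11 it was not called. In the RefSeq order of the other assembly LYNX1 stands among the related genes LY6K, LY6D, LYPD2 and SLURP1.

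Chromosome 24 had a called pair near genes that are neighbours in the other assembly, in opposite directions. At chr24:655824, on the plus strand in an island shore closest to the potassium channel subunit gene KCNG2, the Tough animals had 80.8%, 91.5% and 100% and the Tender animals 57.1%, 62.7% and 81.5%. The difference was -25.1 points (logistic model, adjusted p = 0.00822), which is barely beyond the 25 points asked, and it was -24.9 on the reads before scaling, which ends the call. It was also lost without Tough animal 4 or 5 or Tender animal 7, 8, 10 or 12. At chr24:682420, in a shore closest to CTDP1, a phosphatase of the tail of RNA polymerase II, they had 6.90%, 20.6% and 37.0% against 35.0%, 53.6% and 60.6%. The difference was 28.97 points (logistic model, adjusted p = 0.0209). Its adjusted p in that model on the reads before scaling was 0.0576, and the call was lost without Tough animal 1 or 6 or Tender animal 7 or 10. At both cytosines the groups overlapped by less than 3 points, at the edges of their ranges. Their neighbours within 50 bp differed by -12.8 to 3.82 points and by 8.25 to 14.7 points.

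The minus-strand cytosine at chr1:594274 lay in a CpG island between genes, closest to the uncharacterised LOC618212. It was methylated at 23.9%, 31.7% and 46.3% in Tough and at 45.1%, 62.2% and 72.5% in Tender, a difference of 25.8 points (logistic model, adjusted p = 0.0210). Its 5 neighbours within 50 bp all differed the same way, by 15.02 to 27.7 points, and it had 59 covered cytosines within 500 bp. The call was lost without Tough animal 1 or 2 or Tender animal 10 or 12. For none of the 6 was the opposite strand of the same CpG covered.

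**Figure D5:**
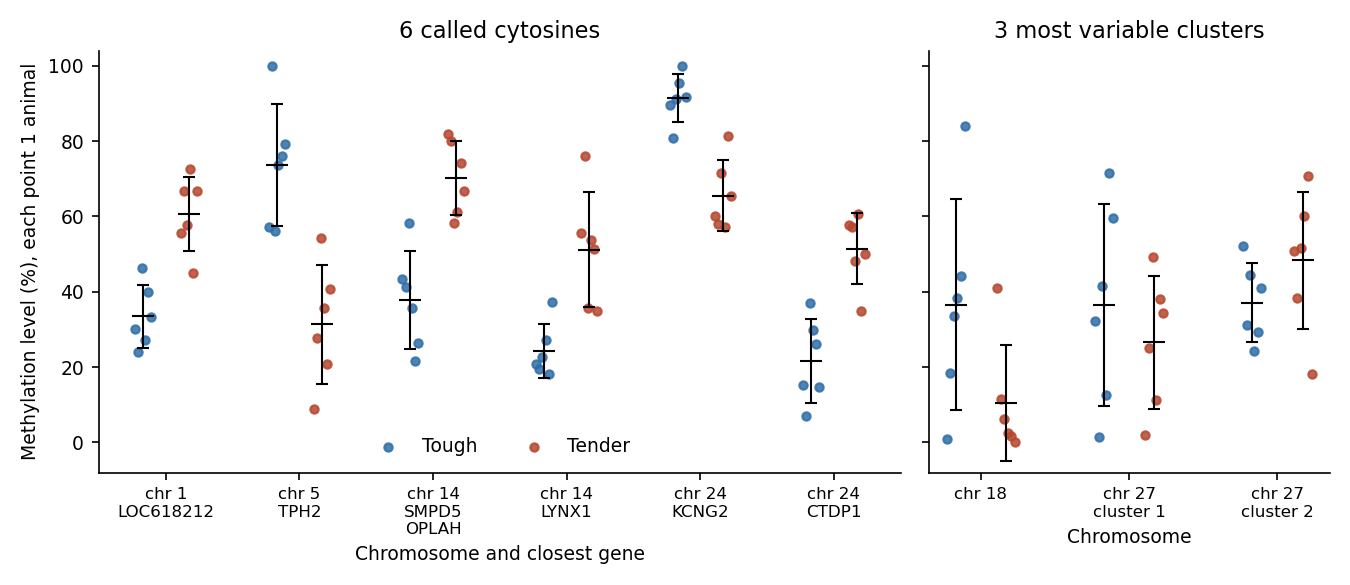
Methylation level (%) of the 6 called cytosines, named by chromosome and closest gene, and of the 3 clusters that varied most between animals; each point is 1 animal, bars are mean ± SD of 6 Tough or 6 Tender animals. The cytosine closest to TPH2 has Tough animals at 56.3% or above and Tender animals at 54.2% or below, and the chromosome 18 cluster runs from 0% to 83.9%.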

How the data were processed

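RRBS libraries of *Longissimus thoracis* from 12 Nelore steers (6 Tough, 6 Tender) were analysed from the deposited table. Per the labels and methods, the authors used FastQC 0.10.1, Trim Galore 0.4.1, Bismark 0.23.0 on ARS-UCD1.2/bosTau9 and methylKit 1.8.1 in R 3.5.1. They kept CpG cytosines with at least 10 reads in every animal, strands apart, removed the most deeply covered ones in each library, and normalized the coverage.

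The deposited values are scores: whole numbers of reads multiplied by 1 factor per animal and rounded. The tests were planned for counts. The steps in the coverage columns gave factors of 1 to 1.27, above 1 in 10 animals, and 99.997% of values returned exactly. The logistic model used the deposited values, and the recovered reads were an alternative. On the recovered reads 91 cytosines were called in place of 121. Conversion groups came from the study's spike-in table. Each animal is 1 sample, and intervals cover animals, not repeat libraries.

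Levels were compared over animals by exact sign-flip tests (12 pairs, smallest p = 0.000488), groups by exact permutation (smallest p = 0.00216), with Python 3.11.15, numpy 2.4.6, scipy 1.17.1, pandas 2.3.3 and matplotlib 3.10.9. Limma 3.58.1 in R 4.3.3 used log2((methylated + 1)/(unmethylated + 1)). Scripts were tested on simulated data. Named were all called members, the 5 highest and 5 lowest chromosomes by level, and the 3 largest and 3 smallest shifts. Members and lists were chosen with earlier results of these data known.

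Of 7 closest gene names, 5 matched the RefSeq table of NIAB-ARS_B.indTharparkar_mat_pri_1.0, whose coordinates were not used. No genome or annotation of the build of the files was used here, so no sequences, promoters or tissue marker promoters were analysed.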

Additional observations from a re-analysis of the deposited data

Results flagged for a closer look

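Over 29 values in 2 groups, 58 groups of 6 animals were examined for a single animal far from the other 5, a gap that chance gives in about 1 of 20 groups, and 4 were found. In the first 2 Mb without chromosomes 14 and 25, Tough animal 2 was the lowest at 34.9%, while the other Tough animals were at 36.0 to 36.5%. Tender animal 10 was the lowest in the first 2 Mb of chromosome 15, at 17.4% against 18.3 to 18.8%, and of chromosome 20, at 58.0% against 58.9 to 59.0%. In the cluster of 10 cytosines at chr18:1178859-1179060, Tender animal 7 stood at 40.99% while the other 5 Tender animals were at 0 to 11.4%.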

How the results depend on the processing

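The level difference kept its direction and call under every alternative run, at 1.67 to 21.4 points, and at 2.60 to 2.64 points without 1 animal. The spread difference did not. It was -0.185 at a limit of 1 Mb, 0.0217 at 3 Mb, -0.835 at 0.25 Mb, 0.0028 without the deepest 1% of cytosines, -0.141 in windows of 100 bp, -0.221 with chromosomes weighted equally, 0.0281 without chromosome 25, 0.0111 without chromosomes 14 and 25, and -0.054 to -0.0105 without 1 animal. The difference of shifts, 0.013 points, was -0.0106 at 1 Mb, -0.111 at 0.25 Mb, -0.00125 with at least 20 reads, -0.0080 in windows, -0.30 with equal weights, -0.0417 without chromosome 25, -0.142 without both, 0.40 with reads pooled over cytosines, and -0.0336 to 0.0488 without 1 animal. The member shift, 0.42 points, was 1.47 with pooled reads (exact permutation p = 0.0866), 0.098 with equal weights and 0.22 to 0.54 without 1 animal.

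Called members numbered 0 by the F-test and by limma, 48 (0.251%, all cytosines 0.225%) without overdispersion correction, 1 (0.0202%, all 0.0136%) with at least 20 reads, 21 (0.110%, all 0.0864%) beyond 10 points and 2 to 9 without 1 animal (all 128 to 196). Called windows numbered 5 (0.0929%, all windows 0.138%) without overdispersion correction, 1 (0.0130%, all 0.0217%) at a limit of 3 Mb, 8 (0.149%, all 0.157%) beyond 10 points and 0 to 2 without 1 animal (all 41 to 81). The first 2 Mb were higher on 17 chromosomes and lower on 12, but on 22 and 7 with at least 20 reads. Single chromosomes changed sign as well: the level difference was 24.2 points at 1 Mb and 1.95 with 20 reads on chromosome 15, 11.4 at 1 Mb on chromosome 28 and 3.81 with 20 reads on chromosome 17, and the shift of chromosome 23 was -0.159 in windows. The cause was not tested for any of these.

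The limit of 0.25 Mb, the sets without chromosomes 14 and 25 and the alternatives for the first 250 kb were chosen after seeing the data. No paired analysis was possible because the replicate numbers run from 1 to 12 over both groups and share none. Promoter alternatives were not run. A median of 24 to 32 reads per cytosine limits single cytosines, and 11 chromosomes had under 150 members.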
